A study of Mus musculus with 9 samples.

Results

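Leukocyte genes were followed across 3 cell populations sorted from mouse back skin, to show how much immune cell RNA each sort gate held. The 9 genes, of 12393 genes named on the array, were fixed by symbol: Ptprc, Cd52, Laptm5, Tyrobp, Fcer1g, Cd74, H2-Aa, H2-Ab1 and Lyz2. Each was read from its brightest probe set, by mean over the arrays. The series set out to find signals sent by the dermal papilla to the hair follicle epithelium in the second resting phase (telogen), and it held 9 oligonucleotide arrays, 1 per population on each of postnatal days 43, 56 and 69 (early, middle and late telogen). All cells came from female CD1 mice of genotype Lef1RFP/K14H2BGFP, whose red fluorescence marks Lef1 activity and whose green H2B fusion marks cells with keratin 14 activity, so no group lacks the reporters. Bulge cells were sorted as RFP-negative, GFP-positive, CD34-positive and low in P-cadherin. Hair germ cells were RFP-negative, GFP-positive, CD34-negative and high in P-cadherin. Dermal papilla cells were RFP-positive and GFP-negative, and were depleted of cells with CD45, CD117, integrin alpha 7 and, per the sample titles, CD34. CD45 was thus part of the dermal papilla gate and of neither epithelial gate. The labels give neither the number of mice behind a sample nor any tie between mice and the populations of a day, so the spread between arrays of a population may be technical and includes any effect of age.

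Leukocytes of the skin include Langerhans cells and other dendritic cells, macrophages, mast cells and T cells, among them the dendritic epidermal T cells that live between mouse keratinocytes. Ptprc encodes CD45, a phosphatase on nearly all nucleated blood cells. MHC class II molecules present antigen to helper T cells. Their alpha and beta chains, here of H2-A, fold with the invariant chain encoded by Cd74 and are made mainly by dendritic cells, B cells and macrophages. Other cells, keratinocytes included, can make them under interferon gamma. Class II promoters share conserved boxes, of which the Y box is bound by the factor NF-Y.

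The class II promoters are shown because H2-Aa and its neighbour in the same gene cluster, H2-Eb1, had the same order of populations. The 120 bases before each gene's start (RefSeq, GRCm38.p6) are given 5′ to 3′, with the letters CTGATTGG of the Y box in capitals. H2-Aa lies on the minus strand, at chr17:34287824-34287943, and H2-Eb1 on the plus strand, at chr17:34305747-34305866.
H2-Aa: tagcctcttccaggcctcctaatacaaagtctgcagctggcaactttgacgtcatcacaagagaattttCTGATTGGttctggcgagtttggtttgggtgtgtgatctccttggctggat
H2-Eb1: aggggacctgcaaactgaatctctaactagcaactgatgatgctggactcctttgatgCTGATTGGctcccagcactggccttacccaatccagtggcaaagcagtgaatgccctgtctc
The box began 51 bases before the start of H2-Aa and 62 bases before that of H2-Eb1. Searched on both strands, as CTGATTGG or CCAATCAG, it occurred in 3.83% of 32851 windows of 250 bases before a start. Of the 9 leukocyte genes, 5 had a window (Ptprc, Laptm5, Fcer1g, H2-Aa and Lyz2), and of these the letters were found for H2-Aa. The match describes the sequence and was not tested against expression.

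Values are MAS5 signals, the array software's brightness estimate per probe set on a linear scale, and differences are on the log2(signal + 16) scale, which understates changes of dim probe sets. The median signal of an array ran from 39.9 to 56.3. A gene was tested where its signal exceeded the array median in 3 or more arrays, which held for 5 of the 9 genes: Ptprc, Laptm5, Cd74, H2-Aa and H2-Ab1. Cd52 was above the median in 2 arrays, Tyrobp and Lyz2 in 1 each and Fcer1g in 0. For bulge and dermal papilla the markers followed the labels. In dermal papilla 12 of 12 of its markers were higher than in either epithelial population, and 9 of 9 keratinocyte markers were lower. In hair germ 9 of 10 bulge markers were lower than in bulge, among them the sort gene Cd34. Vcan, Alpl, Prrx1, Corin, Lef1, Pdgfra and Rspo2 passed the filter through dermal papilla arrays alone, and Cd34 and Tspan2 through bulge arrays alone. Their directions were thus favoured, and Lef1 and Krt14 activity set the reporters, so these counts are a description and no support. Of the genes tested, 15.5% and 16.1% were called higher in dermal papilla than in hair germ and bulge. Shares called lower were 23.8% and 19%, and 7.56% in hair germ against bulge. The hair germ list was mixed. Of its 5 genes tested 4 were higher in hair germ than in bulge, beside 12.2% of all genes tested. Tnfrsf19 and Bmp4 passed the filter through hair germ and dermal papilla arrays alone, which favoured that direction. Lgr5 was lower, at -1.11 (limma, adjusted p = 0.0399, lost under 9 of 18 alternatives). Cdh3 (P-cadherin), on which the hair germ gate was set, was below the median in all 9 arrays. The summed signal of the list was higher in dermal papilla, at 4619 to 5572, than in hair germ, at 2832 to 4543, with most of the dermal papilla sum from Bmp4. RNA quality was uneven. The ratio of the 3' to the 5' GAPDH control signal lay between 3.96 and 5.09 in bulge. It was 6.62 in dermal papilla on day 43, and 4.13 and 3.77 on the later days, while hair germ had 8.34 and 7.90 on days 43 and 69 and 2.97 on day 56.

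Surface and membrane antigens were brightest in bulge for Ptprc and Cd52. Ptprc gave signals of 113, 144 and 129 in bulge on days 43, 56 and 69, of 26.1, 43.8 and 58.9 in hair germ, and of 7.01, 0.462 and 6.45 in dermal papilla. No array of a population overlapped with another population. On the log2 scale bulge averaged 7.17 ± 0.16 (SD, n = 3), hair germ 5.84 ± 0.42 and dermal papilla 4.35 ± 0.27. The step from bulge down to hair germ was a log2 of -1.33 ± 0.29 (SE) for Ptprc, 2.51-fold (limma, adjusted p = 0.00982), on all 3 days. That call ended without the day 43 bulge array (adjusted p = 0.0534), without the day 56 bulge array (adjusted p = 0.0691) and with a pseudocount of 1 (adjusted p = 0.113). Ptprc passed the filter through the 3 bulge arrays and the day 69 hair germ array, which favoured a lower value elsewhere, and with no filter it was still called (limma, adjusted p = 0.0188). Against dermal papilla, where CD45 was used for depletion, the difference is a check of the gate: -2.82 ± 0.29 (SE) from bulge and -1.49 ± 0.29 (SE) from hair germ (limma, adjusted p = 2.07e-05 and 0.00202). In bulk samples such as these, fewer cells of a type and less RNA per cell cannot be told apart.

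Cd52, which encodes a small GPI-anchored glycoprotein of lymphocytes and monocytes, had the same order. Its signals were 29.7, 66.6 and 51.7 in bulge, 17.5, 26.7 and 42.7 in hair germ, and 6.36, 0.840 and 14.3 in dermal papilla. Bulge and hair germ overlapped, and dermal papilla lay below both. Cd52 missed the filter. With no filter it was lower in dermal papilla than in bulge by -1.49 ± 0.30 (SE) and than in hair germ by -0.96 ± 0.30 (limma, adjusted p = 0.0044 and 0.0402), while hair germ was at -0.54 ± 0.30 from bulge (limma, adjusted p = 0.302). Over the 9 arrays Cd52 was the leukocyte gene whose profile was most like that of Ptprc (Pearson's r = 0.93, a description over arrays that share populations).

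Laptm5 encodes a lysosomal membrane protein of blood cells, and it did not follow that order. The brightest of its 3 probe sets gave 190, 331 and 186 in bulge, 65.5, 124 and 171 in hair germ, and 19.3, 238 and 522 in dermal papilla. The dermal papilla arrays spanned the whole range of the other populations, with the lowest and the highest value of all 9. No population contrast passed: hair germ was at -0.92 ± 0.56 (SE) and dermal papilla at -0.53 ± 0.56 from bulge, and dermal papilla at 0.39 ± 0.56 from hair germ (limma, adjusted p = 0.278, 0.509 and 0.615). The probe sets disagreed. The brightest was higher on day 69 than on day 43 in dermal papilla by a log2 of 3.93, whereas the next gave 42.2, 90.1 and 58.7 there and the dimmest gave 33.9, 4.29 and 56.2. By its name the brightest is of the kind that can also bind other transcripts (_x_at). Without the day 43 dermal papilla array Laptm5 was called higher in dermal papilla than in hair germ, at 1.30 (limma, adjusted p = 0.0232).

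The ITAM adapters Tyrobp and Fcer1g carry activating signals from receptors of myeloid cells, natural killer cells and mast cells. Tyrobp gave 17.6, 19.4 and 18.9 in bulge, 16.3, 24.3 and 84.3 in hair germ, and 15.5, 7.62 and 2.31 in dermal papilla. Only the day 69 hair germ array stood above its median, and the other hair germ arrays were near the bulge level. With no filter Tyrobp was at -1.09 ± 0.40 (SE) in dermal papilla against hair germ (limma, adjusted p = 0.0703). Fcer1g, the common Fc receptor gamma chain, lay between 2.37 and 20.6 in all 9 arrays, below the median of each, and its populations overlapped. At such signals neither a difference nor its absence can be read.

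Lyz2, the lysozyme of macrophages and neutrophils, was likewise low. It gave 17.3, 14.3 and 23.1 in bulge, 9.78, 24.5 and 62.3 in hair germ, and 15.98, 18.9 and 22.3 in dermal papilla. Again the day 69 hair germ array alone exceeded its array's median. With no filter the 3 population contrasts lay between -0.31 and 0.35 (limma, adjusted p = 0.519 to 0.957).

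**Figure D1:**
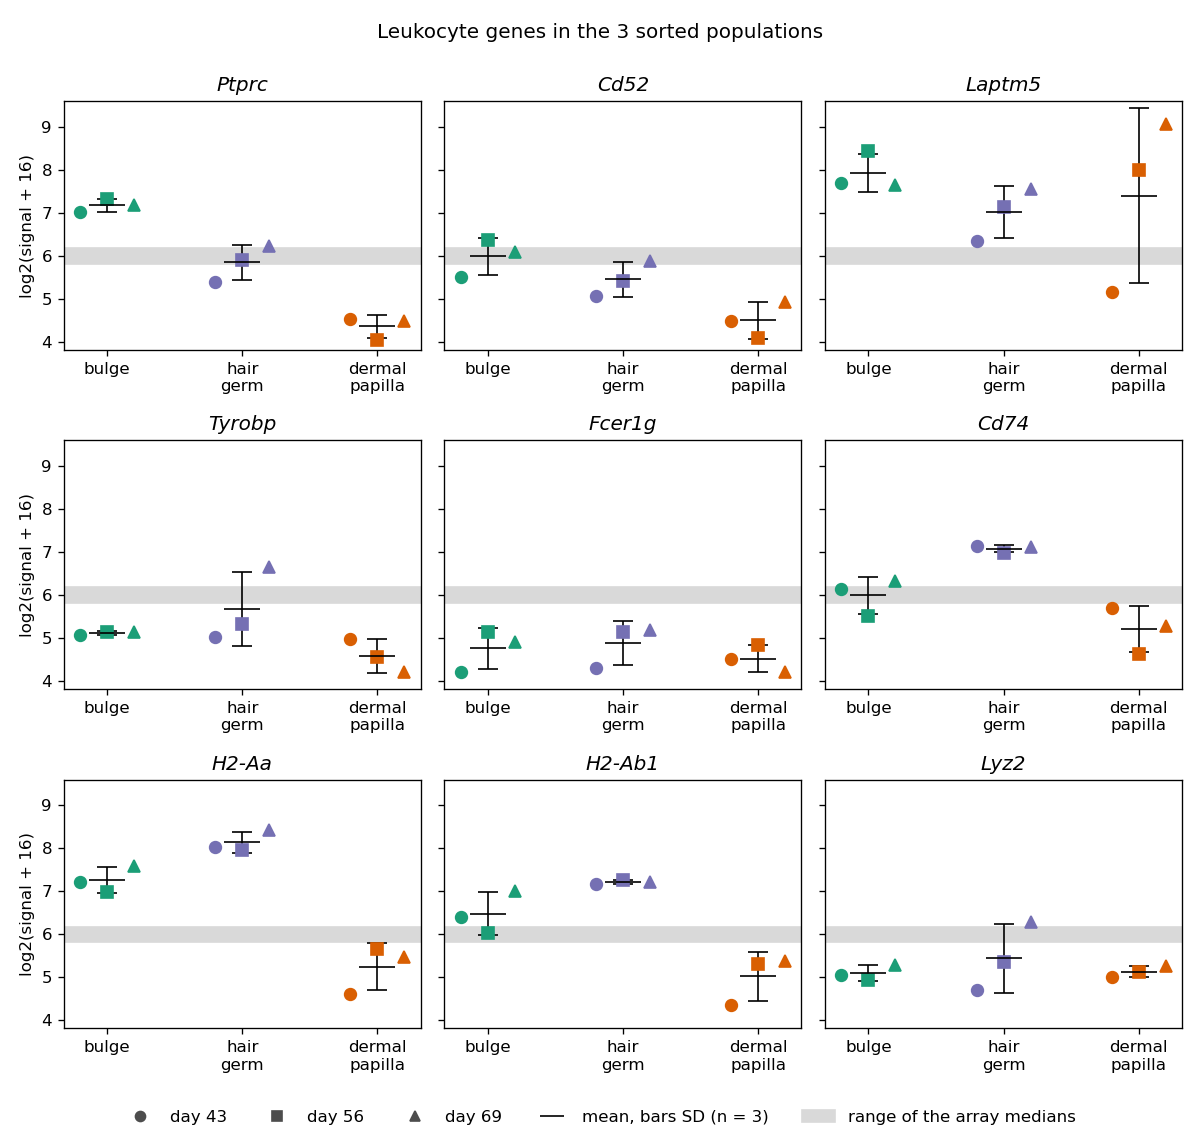
Level of each of the 9 leukocyte genes on the log2(signal + 16) scale (vertical axis) in bulge, hair germ and dermal papilla, with 1 symbol per array (day 43, 56 or 69), the mean and SD of the 3 arrays in black and the range of the array medians as a grey band. Ptprc and Cd52 step down from bulge to dermal papilla, Cd74, H2-Aa and H2-Ab1 peak in hair germ, Laptm5 spreads widely in dermal papilla, and Tyrobp, Fcer1g and Lyz2 lie mostly below the band.

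MHC class II genes had another order, with hair germ highest. Cd74 gave 124, 111 and 122 in hair germ, 54.4, 29.6 and 64.6 in bulge, and 35.6, 8.73 and 22.8 in dermal papilla. The hair germ arrays lay above all others, while bulge and dermal papilla overlapped. Cd74 was higher in hair germ than in bulge by 1.08 ± 0.27 (SE), 2.12-fold (limma, adjusted p = 0.0187), on all 3 days. The call ended without the day 43 or day 56 bulge array (adjusted p = 0.101 and 0.0877), without the day 56 hair germ array (adjusted p = 0.091) and with a pseudocount of 1 (adjusted p = 0.0519).

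H2-Aa, the class II alpha chain, gave 247, 234 and 326 in hair germ, 131, 111 and 175 in bulge, and 8.47, 34.2 and 28.3 in dermal papilla. No populations overlapped. The levels were 8.14 ± 0.24 (SD, n = 3), 7.26 ± 0.30 and 5.24 ± 0.55 log2 units, and hair germ exceeded bulge by 0.88 ± 0.27 (SE), 1.84-fold (limma, adjusted p = 0.0445). This value was close to the threshold, and it missed it under 13 of 19 alternatives, with the adjusted p between 0.0172 and 0.199 over all 19. Among them were quantile normalization (adjusted p = 0.0852), median centring (adjusted p = 0.113) and the fit without postnatal day (adjusted p = 0.0554), as well as leaving out any bulge or hair germ array. The brightest probe set of H2-Aa is, like that of Laptm5, of the kind that can also bind other transcripts (_x_at). The part of such binding in these values was not tested. The second probe set of H2-Aa differed by 0.84 in the same direction (limma, adjusted p = 0.115).

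H2-Ab1, the beta chain, gave 127, 138 and 132 in hair germ, 68.0, 49.3 and 113 in bulge, and 4.45, 23.5 and 25.7 in dermal papilla. The groups again did not overlap, with the day 69 bulge array close below hair germ. The difference of hair germ from bulge was 0.73 ± 0.31 (SE) and did not pass (limma, adjusted p = 0.125). Its other 2 probe sets were at 0.90 and 0.87. H2-Aa and H2-Ab1 rose and fell together over the arrays (r = 0.98), and Cd74 with them (r = 0.82 and 0.81).

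All 3 class II genes were lower in dermal papilla. Against hair germ the differences were -1.88 ± 0.27 (SE) for Cd74, -2.90 ± 0.27 for H2-Aa and -2.20 ± 0.31 for H2-Ab1 (limma, adjusted p = 0.000256, 1.06e-05 and 0.000205). Against bulge they were -0.80 ± 0.27, -2.01 ± 0.27 and -1.47 ± 0.31 (limma, adjusted p = 0.0425, 0.000161 and 0.00337). The Cd74 difference from bulge lost its call under 8 of 18 alternatives (adjusted p = 0.0263 to 0.191 over all 18). The call ended with no filter (limma, adjusted p = 0.0813), with a pseudocount of 64 and in the fit without postnatal day. Leaving out any bulge array, or the day 56 or day 69 dermal papilla array, also ended it. For H2-Ab1 the 2 dimmer probe sets did not pass against bulge (limma, adjusted p = 0.224 and 0.622).

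**Figure D2:**
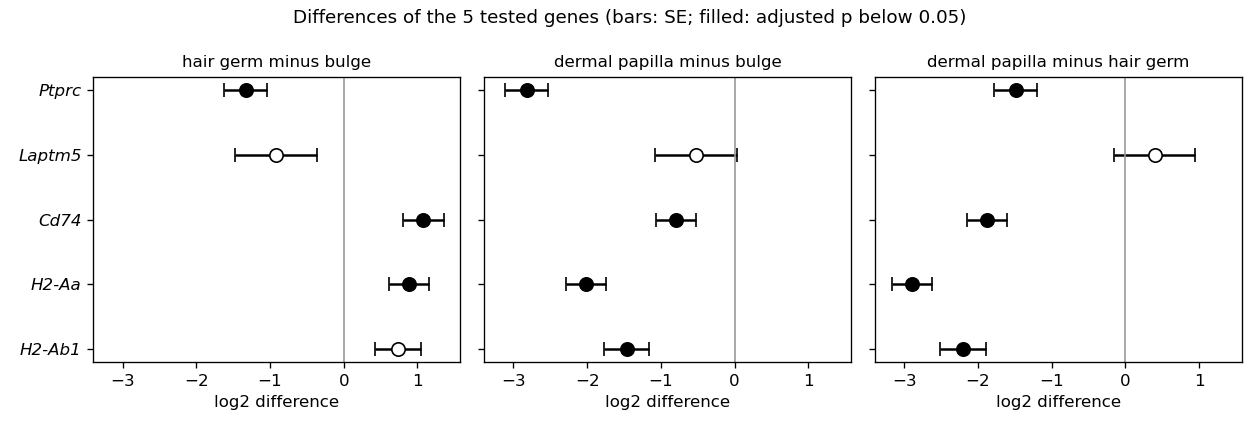
Log2 difference (horizontal axis) between populations for the 5 leukocyte genes tested, with the SE as bars and filled points where the adjusted p was below 0.05. In hair germ against bulge Ptprc lies at -1.33 while Cd74 and H2-Aa lie at 1.08 and 0.88, and in both dermal papilla contrasts all but Laptm5 lie below 0 and are filled.

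Counted over all 9 genes, 4 were called lower and 0 higher in dermal papilla than in hair germ, where 39.3% of the 7796 genes tested were called in either direction and 23.8% lower. The same 4 (Ptprc, Cd74, H2-Aa and H2-Ab1) were called lower than in bulge, where 35.1% of genes were called and 19% were lower. In hair germ against bulge 2 were called higher and 1 lower, beside 19.8% of genes called, 12.2% of them higher and 7.56% lower as shares of the genes tested. The 4 genes lower in dermal papilla passed the filter through bulge and hair germ arrays alone, so these counts are a description and no support. With no filter 5, 4 and 2 of 9 were called in the 3 contrasts, beside 3174, 2742 and 1416 of the 12393 genes named. The groups did not overlap for 6 of 9 genes in dermal papilla against hair germ (lower, 22.7% of all genes named), 5 of 9 against bulge (lower, 21.1%), and for 3 higher and 2 lower in hair germ against bulge (20.7% and 10.7%). The median difference of the 9 genes was -1.09, -0.80 and 0.35 in these contrasts, beside -0.13, -0.0037 and 0.13 for all genes named.

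Days were compared with 1 array each within a population, so those differences have no test. In bulge 0 of 9 genes differed at least 2-fold, with the higher array above its median, in any pair of days, where 0.395% (day 56 against 43), 1.76% (69 against 43) and 2.31% (69 against 56) of all genes did. In hair germ 3 of 9 were higher by that measure on day 69 than on day 43, where 9.15% of genes passed it in either direction: Laptm5 by a log2 of 1.19, Tyrobp by 1.64 and Lyz2 by 1.60. Ptprc was at 0.83 and the class II genes were between -0.02 and 0.38. Tyrobp was also higher than on day 56, by 1.32, where 8.77% of genes passed, and from day 43 to day 56 it was 0 of 9 beside 5.89%. In dermal papilla Laptm5 alone passed, at 2.85 from day 43 to day 56, 3.93 from day 43 to day 69 and 1.08 from day 56 to day 69, beside 5.08%, 6.06% and 3% of genes. Below the array median there, Cd74 and H2-Aa were at -1.06 and 1.04 from day 43 to day 56, and H2-Ab1 at 1.03 from day 43 to day 69. The day 43 and day 69 hair germ arrays had like GAPDH ratios (8.34 and 7.90). The ratio was 2.97 in hair germ on day 56, and in dermal papilla 6.62 on day 43 and 3.77 on day 69. The 3' to 5' ratio of the actin control on days 43, 56 and 69 was 17.7, 3.79 and 16.3 in hair germ. In dermal papilla it was 13.5, 4.32 and 3.12. The part of RNA quality in these differences was not tested. Across populations no gene of all 7796 passed for day 69 or day 56 against day 43 (limma, 0 called, with 565 and 398 genes, 7.25% and 5.11%, at an unadjusted p below 0.05). Of the 9, Laptm5 was at 1.70 ± 0.56 (SE) and 1.46 ± 0.56, with adjusted p = 0.68 and 0.845.

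T cell genes did not move as a group. Of 13 on the array 6 were tested, and Cd3g, Cd7 and Lat were lower and Thy1 higher in hair germ than in bulge, while Nkg7 and Zap70 did not pass. Cd3g, Cd7, Lat and Nkg7 passed the filter through the 3 bulge arrays alone, so a lower value in hair germ was favoured and the count supports nothing about the list. With no filter the Cd3g, Cd7 and Lat calls were kept. The summed signal of the 13 genes ran from 606 to 802 in bulge, from 491 to 1100 in hair germ and from 282 to 478 in dermal papilla. Thy1 alone gave 307, 347 and 140 of the dermal papilla sums on days 43, 56 and 69, and 916 of the 1100 in hair germ on day 43. Cd3g, a chain of the T cell receptor complex, gave 117, 125 and 124 in bulge, 12.3, 32.7 and 53.5 in hair germ, and 3.63, 0.578 and 1.498 in dermal papilla. Hair germ differed from bulge by -1.59 ± 0.32 (SE; limma, adjusted p = 0.00643), a call that ended with a pseudocount of 1 (adjusted p = 0.0609) and without the day 43 bulge array (adjusted p = 0.0503). Cd7, a T and natural killer cell antigen, was lower by -1.96 ± 0.30 (limma, adjusted p = 0.00128), and Nkg7, a cytotoxic granule gene, was at -0.90 ± 0.30 (limma, adjusted p = 0.0615). The adapter gene Lat was at -1.04 (limma, adjusted p = 0.0402), and its call ended on leaving out any bulge array. Zap70, a kinase of T cell receptor signalling, was at 0.07 (limma, adjusted p = 0.919). Thy1 was at 1.88 (limma, adjusted p = 0.0173), with a signal of 916 on day 43 and 148 on day 69 in hair germ. Among all genes tested, the 5 with profiles most like Ptprc over the 9 arrays were Egfl6, Cd3g, Rnf225, Prss8 and Capn5 (r = 0.99 for each).

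Antigen presentation genes beyond the 9 were led by H2-Eb1, another class II beta chain. It gave 412, 240 and 243 in hair germ, 58.1, 69.5 and 109 in bulge, and 23.4, 19.8 and 24.0 in dermal papilla, and was higher in hair germ than in bulge by 1.72 ± 0.29 (SE; limma, adjusted p = 0.00211). Of 5 class II pathway genes tested, of 9 on the array, 1 was higher (H2-Eb1) and 1 lower (Ifi30, a lysosomal thiol reductase, at -0.88, adjusted p = 0.0296 by limma) in hair germ than in bulge. The Ifi30 call ended without the day 43 or 56 bulge array or the day 43 or 56 hair germ array (adjusted p = 0.0863 to 0.202). In dermal papilla 4 of 5 were lower than in hair germ and 3 of 5 lower than in bulge, beside 23.8% and 19% of all genes tested. Against hair germ Ifi30 lost its call under 9 of 18 alternatives (limma, adjusted p up to 0.464), and Lgmn under 3 of 18. H2-Eb1, Lgmn and Ctss passed the filter through bulge and hair germ arrays alone, which favoured a lower value in dermal papilla. These counts are thus a description and no support. MHC class I presentation genes, which most cells express, were higher in hair germ than in bulge in 5 of 8, with the peptide transporter gene Tap1 at 1.29 ± 0.25 (SE), B2m, the class I light chain, at 0.99 and the proteasome subunit gene Psmb9 at 1.11 (limma, adjusted p = 0.00481, 0.0129 and 0.0451). The B2m call ended without the day 43 or day 69 bulge array (adjusted p = 0.0515 and 0.0826), and that of Psmb9 under 10 alternatives, among them quantile normalization and median centring (adjusted p = 0.0744 and 0.0914). H2-K1, a class I heavy chain, was at 0.83 (limma, adjusted p = 0.0297) and lost its call under 8 of 18 alternatives, quantile normalization and median centring included (adjusted p = 0.0791 and 0.105). Class I genes were lower in dermal papilla than in hair germ in 7 of 8, beside 23.8% of all genes tested. For the 5 of 8 higher in hair germ than in bulge that share was 12.2%. The 5 genes most like Cd74 over the arrays were Ugp2, Coa5, Slc39a11, Klf6 and Ptgs2 (r = 0.96 to 0.98).

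Markers of single leukocyte types were mostly dim, and the part of any of these cell types in the class II differences was not tested. Cd207 (langerin), a marker of Langerhans cells, lay between 1.64 and 23.3 in all arrays, below the median of each, so neither a difference nor its absence can be read. Among 14 macrophage and monocyte genes 2 were tested. Csf1r, the receptor for macrophage growth factors, gave 69.3, 164 and 277 in hair germ, 99.1, 51.7 and 96.9 in bulge, and 32.8, 47.2 and 39.6 in dermal papilla, at 0.78 in hair germ against bulge (limma, adjusted p = 0.166). In hair germ the summed signal of that list went from 254 on day 43 to 331 on day 56 and 716 on day 69, beside 224 to 281 in bulge and 305 to 348 in dermal papilla. The day 69 hair germ array, where Tyrobp and Lyz2 peaked, also held the highest C1qb, at 86.7 against at most 21.6 elsewhere, while C1qa and C1qc stayed at or below 4.96 in all arrays. Of 15 other pan-leukocyte genes 4 were tested. In hair germ against bulge 1 was higher (Arhgdib, at 1.94, adjusted p = 0.00469 by limma) and 0 lower, beside 12.2% and 7.56% of all genes tested. Arhgdib passed the filter through the 3 hair germ arrays and the day 69 bulge array, which favoured a higher value in hair germ. In dermal papilla 3 were lower and 1 higher than in hair germ. The higher gene was Lsp1, at 0.85 (limma, adjusted p = 0.0486), which lost its call under 13 of 18 alternatives (adjusted p up to 0.228). Of the lower genes, Arhgdib and Cytip passed the filter through bulge and hair germ arrays alone, which favoured a lower value in dermal papilla. Of all genes tested 23.8% were lower in that contrast. The summed signal of the 9 leukocyte genes ran from 624 to 785 in bulge, from 637 to 1020 in hair germ and from 119 to 647 in dermal papilla, where most of the highest sum was Laptm5.

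**Figure D3:**
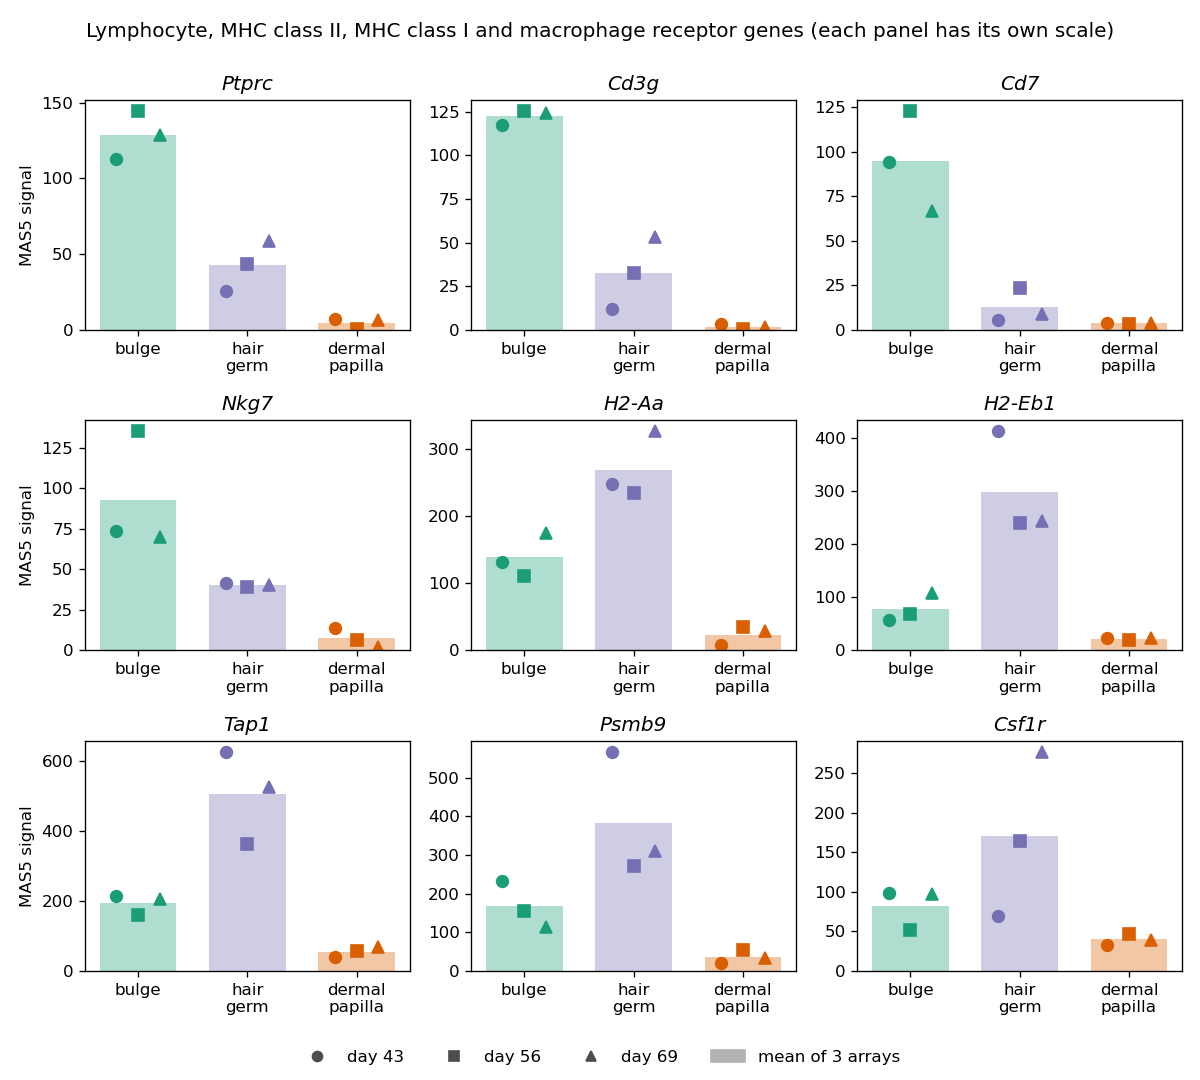
MAS5 signal (vertical axis, linear from 0, a separate scale in each panel) of Ptprc and the lymphocyte genes Cd3g, Cd7 and Nkg7, the class II genes H2-Aa and H2-Eb1, the class I pathway genes Tap1 and Psmb9, and the macrophage receptor gene Csf1r, with 1 symbol per array and the mean of 3 arrays as a bar. Ptprc, Cd3g, Cd7 and Nkg7 are highest in bulge, H2-Aa, H2-Eb1, Tap1 and Psmb9 in hair germ, and Csf1r reaches its top value of 277 in hair germ on day 69. The panels do not stand for their lists. Not shown are Thy1, higher in hair germ than in bulge, Zap70, which did not pass, and the class II pathway gene Ifi30, lower in hair germ than in bulge.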

How the data were processed

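RNA of sorted cells went through 2 rounds of amplification before labelling, per the labels' protocols. The authors deposited 1 intensity per probe set and array, a linear MAS5 signal made with GCOS, per the submitters' processing notes. Versions and scaling target are not given in the sources used here, detection calls were not used, and the number of arrays limits the precision. Of 22690 probe sets, 64 controls were set aside. Of the rest, 20380 carried 1 gene symbol, 691 several and 1555 none, from GEO's platform annotation, and 20351 symbols were matched to RefSeq.

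Here signals were used as log2(signal + 16) without rescaling. Probe sets above their array's median in at least 3 of 9 arrays were kept (12801), with the brightest per gene (7796 genes). limma 3.58.1 in R 4.3.3 (lmFit, eBayes with trend, tested on simulated data) fitted population and postnatal day to all 9 arrays, with 4 residual degrees of freedom. Two-sided p-values were adjusted by Benjamini-Hochberg over all genes tested and called below 0.05. The days serve as replicates of a population. Deviations of same-day arrays correlated between -0.097 and 0.184 across genes, and those of different days between -0.261 and 0.243, so the days are not shown to pair the arrays.

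All 9 leukocyte genes are named, with up to 4 passing genes per marker list by adjusted p, or others as stated; Thy1, Zap70, S100a9, Cdh3, Cd68, Adgre1, Itgax, C1qa, C1qb, C1qc and Cd207 were picked after their values were seen. Members and lists were chosen with earlier results of these data known. Alternatives were pseudocounts, scaling, filter, probe set choice, the day term, the variance trend and leaving out arrays.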

Additional observations from a re-analysis of the deposited data

How the results depend on the processing

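Of 285 values of the 5 tested genes in the population contrasts under alternatives, 248 kept direction and side of the threshold, 30 lost the call, 1 gained it and 6 changed sign. All 6 were Laptm5, which was not called: dermal papilla minus bulge became 0.42 without both the dermal papilla array of day 43 and the hair germ array of day 69, 0.56 in the dimmest probe set and 0.08 or 0.38 without bulge replicate 1 or dermal papilla replicate 1, dermal papilla minus hair germ became -0.38 without dermal papilla replicate 3, 1.30 without dermal papilla replicate 1 and 1.49 without that pair of arrays, dermal papilla minus bulge ranged from -1.30 to 0.38 over single arrays left out, and hair germ minus bulge became 0.0070 in the dimmest probe set. In hair germ against bulge the 3 calls fell to 0 with a pseudocount of 1. Leaving out single arrays gave 0 to 3 calls among the 9 genes and 783 to 1609 over all genes, against 1541; the counts over all genes were 783, 973 and 863 without bulge replicates 1, 2 and 3, and without hair germ replicate 2 there was 1 call among the 9. The fit with no replicate block, that is without postnatal day, called 2 of the 9 in hair germ against bulge, 3 in dermal papilla against bulge and 4 against hair germ; it has no day contrast. Scaling moved the median of all genes in hair germ against bulge from 0.10 to -0.05 (quantile) and -0.11 (median centring), and the split of calls from 952 higher and 589 lower to 694 and 794 and to 613 and 941. For dermal papilla against hair germ the split went from 1207 and 1855 to 1526 and 1505 and to 1451 and 1482, as the median moved from -0.15 to 0.01 and 0.0006. Without that pair of arrays, an alternative chosen after seeing the data, the calls among the 9 were 2, 4 and 4. The causes were not tested. Signals near or below the array median limit Cd52, Tyrobp, Fcer1g and Lyz2.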

Other observations

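Genes known from myeloid cells did not share a direction in dermal papilla, where Ptprc was at most 7.01. Irf8 and Cd14 were higher there. Csf1r was lower than in hair germ by -1.57 (limma, adjusted p = 0.00608, and 0.115 without the dermal papilla array of day 43 and the hair germ array of day 69). Cd68, Adgre1, Itgax, Cd207, C1qa, C1qb and C1qc were below the median in all 3 dermal papilla arrays. This was not particular to dermal papilla: Cd68 and C1qb were above the median in 1 of 9 arrays each, and the others in 0. Irf8, a transcription factor of dendritic cells and monocytes, gave 730, 695 and 1147 in dermal papilla, 22.3, 9.81 and 12.8 in bulge and 1.48, 24.3 and 23.1 in hair germ, and was higher than in bulge by 4.80 ± 0.34 (SE; limma, adjusted p = 1.25e-06). It passed the filter through the dermal papilla arrays alone. Cd14, the lipopolysaccharide co-receptor, gave 99.6, 163 and 128 there against at most 45.3 elsewhere, and was higher than in bulge by 1.64 ± 0.30 (SE; limma, adjusted p = 0.00134). Cd14 passed the filter through the dermal papilla arrays and the day 69 bulge array, which favoured that direction. Mfge8, which helps clear dying cells, gave 787 to 892 in dermal papilla and 929 to 952 in bulge, at a log2 of -0.14 ± 0.19 (SE; limma, adjusted p = 0.618), and hair germ was at -2.35 from bulge (limma, adjusted p = 3.54e-05). Cd24a gave 234, 245 and 3665 in dermal papilla on days 43, 56 and 69, 2280 to 2858 in bulge and 1201 to 1618 in hair germ. It was at -2.07 in dermal papilla against bulge (limma, adjusted p = 0.0358), a call lost under 7 of 18 alternatives.

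Of the ITAM pathway genes beyond the 9, 3 were tested, and in hair germ against bulge 0 passed by limma. In dermal papilla the kinase gene Syk was lower than in bulge by -1.47 (limma, adjusted p = 0.000715). Syk passed the filter through bulge and hair germ arrays alone, which favoured that direction. Plcg2 went the other way, at 0.87 in dermal papilla against hair germ (limma, adjusted p = 0.0079), and was at 0.25 against bulge (limma, adjusted p = 0.409). Fcgr2b passed in neither contrast. In hair germ the alarmin genes S100a8 (263, 26.0 and 958 on days 43, 56 and 69) and S100a9 (141, 2.57 and 436), known from neutrophils and from stressed keratinocytes, were high on the days whose GAPDH 3'/5' ratio was high, and the part of RNA quality was not tested. Mast cell, B cell, erythroid and endothelial lists had 0 genes tested, with summed signals of 55.3 to 171, 18.9 to 60.0, 6.14 to 39.7 and 60.3 to 205 over the 9 arrays. In hair germ against bulge the pigment genes Dct, Tyrp1 and Pmel were higher, at 4.34, 3.73 and 3.16, and Mitf, the fourth melanocyte gene tested, was lower, at -2.18 (limma, adjusted p = 2.48e-05, 4.82e-05, 0.000217 and 8.45e-05). Tyrp1 passed the filter through the hair germ arrays alone, and Pmel through these and the day 69 bulge array. A higher value in hair germ was thus favoured for both. Of 2 muscle genes tested Acta2 was higher, at 1.71 (limma, adjusted p = 0.00082), and Acta1, at 1.28 (limma, adjusted p = 0.0296), lost its call under 7 of 18 alternatives, quantile normalization and median centring included. Acta1 passed the filter through hair germ and dermal papilla arrays alone, which favoured that direction.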
